A study of Mus musculus with 4 samples.

Results

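The 52 genes described here license the origins of DNA replication, unwind and copy the DNA at the fork, and supply the fork with deoxynucleotides. They were chosen by symbol in 10 roles, from the origin recognition complex to cyclin E and its E2F transcription factors, and each symbol was matched to its Ensembl identifier. All 52 matched among the 45232 identifiers, and all 52 were among the 15591 genes kept by a filter on low counts. RNA was sequenced from leukemic granulocyte-macrophage progenitors (L-GMP), the cells that carry an MLL-AF9 leukemia from one mouse to the next. One group is labelled Scr and the other miR-99 KD, each with 2 libraries from 2 mice by the series design. Neither name is spelled out in the labels, which give no strain, age or sex. In both groups the cells came from secondary recipients of MLL-AF9 cells, taken when the mice died, and were sorted as positive for CD34, CD16/32, Sca-1, c-Kit, tdTom and GFP. RNA was extracted with Trizol LS and amplified by SMARTer, a template-switching method for small inputs. Nothing ties an Scr mouse to a miR-99 KD mouse, and the sources used here do not say how miR-99 KD was made or whether the mice share a donor.

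Replication is licensed before S phase. The origin recognition complex (ORC), CDC6 and CDT1 load the ring-shaped MCM2-7 helicase onto DNA, and geminin blocks CDT1 afterwards so that no origin is loaded again in the same cycle. Kinases then bring in CDC45 and the GINS complex, which turn the ring into the active helicase. Polymerase alpha with primase starts each strand, polymerases epsilon and delta extend it, and PCNA, a sliding clamp placed by replication factor C (RFC), holds the polymerases on the template. Ribonucleotide reductase, thymidylate synthase, thymidine kinase and dUTPase set the supply of deoxynucleotides. Cyclin E and the E2F factors control entry into S phase, and E2F factors drive many of the other genes. The miR-99 family, to which miR-99a, miR-99b and miR-100 belong, pairs with messenger RNAs through a short seed near the 5′ end.

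The seeds are shown because they set which transcripts the family could pair with directly. The sequences are those of RefSeq on GRCm38.p6, 5′ to 3′, with bases 2 to 8 in capitals. The 5p arm of miR-99a lies at chr16:77598940-77598961, that of miR-100 at chr9:41531437-41531458 and that of miR-99b at chr17:17830194-17830215, all on the plus strand.
mmu-miR-99a-5p: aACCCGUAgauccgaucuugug
mmu-miR-100-5p: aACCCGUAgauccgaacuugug
mmu-miR-99b-5p: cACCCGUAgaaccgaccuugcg
The 3 share 1 seed. A match to it was found in the 3′ UTR of 1 of the 52 members, E2f2, which is 1.92% of them. The same match was found in 1.37% of the 12368 tested genes with an annotated 3′ UTR. With a match to bases 2 to 7 followed by an A counted as well, the shares were 1.92% and 2.35%. The median 3′ UTR was 732.5 bases long in the members and 1157 in the tested genes. The E2f2 site starts at base 222 of a 3′ UTR of 3020 bases, and its 7 matching bases are in capitals.
E2f2 site: tcatgaaggacTACGGGTgcaggtggcca
E2f2, an E2F factor that activates S-phase genes, had 19.7 and 26.7 CPM (read counts over library size) in Scr, against 23.7 and 14.5 in miR-99 KD, all scaled by the trimmed mean of M-values (TMM). The groups overlapped. A match of letters is a description and not a shown site of pairing.

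Promoters of 6 members are shown because E2F letters were found in most MCM promoters and in no promoter of the nucleotide-supply genes. RefSeq's windows run from 250 bases before to 50 bases after an annotated start, and 42 of the 52 members had at least 1. Some genes had several windows, and a match in any of them was counted. The search covered both strands and used the E2F letters TTTCCCGC, TTTCGCGC, TTTGCCGC and TTTGGCGC, the CCAAT box, and the cell-cycle element called CHR (TTTGAA or TTCGAA). E2F and CCAAT matches are in capitals, in the direction of the gene, and a match on the other strand appears as its reverse complement. In Mcm5 and Mcm6 a pair of E2F matches on opposite strands overlaps into 1 longer run of capitals.
Mcm3 (chr1:20820263-20820562, minus strand): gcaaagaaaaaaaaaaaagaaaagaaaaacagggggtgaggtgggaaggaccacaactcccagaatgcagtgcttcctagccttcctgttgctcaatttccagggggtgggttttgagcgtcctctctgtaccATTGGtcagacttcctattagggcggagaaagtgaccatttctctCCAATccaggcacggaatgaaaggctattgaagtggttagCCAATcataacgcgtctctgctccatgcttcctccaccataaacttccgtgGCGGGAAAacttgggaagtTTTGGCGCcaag
Mcm5 (chr8:75109259-75109558, plus strand): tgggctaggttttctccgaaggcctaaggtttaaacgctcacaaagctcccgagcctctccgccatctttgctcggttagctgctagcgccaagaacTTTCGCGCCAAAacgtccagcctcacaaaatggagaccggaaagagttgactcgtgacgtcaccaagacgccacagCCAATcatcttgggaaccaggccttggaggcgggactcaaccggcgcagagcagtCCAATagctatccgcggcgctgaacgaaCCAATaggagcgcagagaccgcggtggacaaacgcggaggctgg
Mcm6 (chr1:128359656-128359955, minus strand): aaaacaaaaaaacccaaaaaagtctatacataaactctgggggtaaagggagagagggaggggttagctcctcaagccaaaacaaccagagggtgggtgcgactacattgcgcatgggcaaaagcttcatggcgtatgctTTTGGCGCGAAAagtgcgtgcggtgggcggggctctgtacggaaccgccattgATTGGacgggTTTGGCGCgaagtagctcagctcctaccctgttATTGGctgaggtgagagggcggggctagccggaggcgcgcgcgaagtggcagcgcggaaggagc
Pola1 (chrX:93632106-93632405, minus strand): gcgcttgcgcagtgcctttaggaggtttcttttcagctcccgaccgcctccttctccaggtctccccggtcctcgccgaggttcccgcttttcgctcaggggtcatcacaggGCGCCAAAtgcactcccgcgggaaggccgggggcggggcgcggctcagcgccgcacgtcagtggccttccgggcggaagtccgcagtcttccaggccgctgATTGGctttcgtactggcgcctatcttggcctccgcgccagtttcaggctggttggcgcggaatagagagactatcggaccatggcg
Pcna (chr2:132253131-132253430, minus strand): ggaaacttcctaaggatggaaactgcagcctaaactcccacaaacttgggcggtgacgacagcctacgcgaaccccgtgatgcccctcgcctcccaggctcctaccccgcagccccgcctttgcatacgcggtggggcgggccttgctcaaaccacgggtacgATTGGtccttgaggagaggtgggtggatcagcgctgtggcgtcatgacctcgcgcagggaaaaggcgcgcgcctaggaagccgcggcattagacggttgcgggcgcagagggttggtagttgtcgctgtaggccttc
Rrm2 (chr12:24708004-24708303, plus strand): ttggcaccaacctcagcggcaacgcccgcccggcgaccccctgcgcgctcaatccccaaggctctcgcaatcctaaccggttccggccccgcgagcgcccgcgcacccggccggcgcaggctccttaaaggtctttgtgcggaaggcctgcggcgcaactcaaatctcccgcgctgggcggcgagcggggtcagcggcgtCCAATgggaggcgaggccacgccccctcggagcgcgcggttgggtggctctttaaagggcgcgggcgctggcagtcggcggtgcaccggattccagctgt
E2F letters were found in 16 of the 42 members, or 38.1%, and in 2.61% of all 27025 genes with a window. In the first window of each gene alone, they were found in 15 members, or 35.7%, and in 2.32% of all genes. Among 10424 tested genes with a window the share was 4.66%. The CCAAT box was in 25 of 42 members (59.5%) and in 43.0% of the tested genes, and CHR letters were in 9 of 42 (21.4%) and in 16.6%. By role, E2F letters were in 4 of 5 MCM promoters, 4 of 7 polymerase and primase promoters, 3 of 5 origin-loading promoters and 0 of 5 nucleotide-supply promoters. The median log2 fold change, miR-99 KD over Scr, was -0.01 for the 16 members with E2F letters and 0.18 for the 26 without. Most of the 16 were among the members with longer transcripts. With all members split by transcript length, the median was -0.04 for the longer and 0.23 for the shorter. A part of the letters apart from length was not tested. No match says only that these letters are absent from the windows searched. By the GENCODE M21 annotation, every window of Cdc6, Mcm7, E2f1, Timeless and Dut, a nucleotide-supply gene, lies inside the gene. So does at least 1 window of each of Lig1, Orc2, E2f2 and Pold2. The counted E2F letters of Cdc6, Mcm7 and Lig1 are in such windows.

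**Figure D1:**
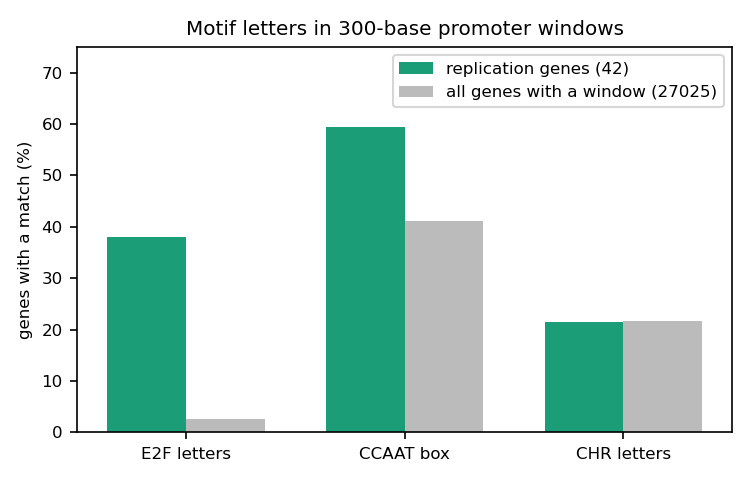
Share of genes, in percent, with E2F letters, a CCAAT box or CHR letters in any promoter window, for the 42 members and for all 27025 genes with a window. E2F letters stand at 38.1% of the members and 2.61% of all genes.

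Reads counted to genes came to between 38458519 and 42674407 per library. Scr 1 stood apart, with 28573 genes detected against 21372 to 24038 in the other 3 libraries. No gene of 15591 was called at an adjusted p of 0.05 by edgeR's quasi-likelihood test with Benjamini-Hochberg adjustment, and limma-voom called 0 too. At an unadjusted p under 0.05 edgeR had 414 genes higher (2.66%) and 816 lower (5.23%) in miR-99 KD. DESeq2 called 208, with 0.565% of its genes higher and 0.659% lower. Of the sort's own markers, Kit had 424 and 437 TMM-scaled CPM in Scr, against 307 and 234 in miR-99 KD. Fcgr3, Fcgr2b and Cd34 went the other way, with both miR-99 KD libraries above both Scr libraries. Fcgr3 had 408 and 382 in Scr, against 426 and 486 in miR-99 KD. Fcgr2b had 126 and 121 against 150 and 154, and Cd34 had 334.5 and 291.5 against 356 and 336. Ly6a, which encodes Sca-1, had 4, 8, 5 and 4 counts although the sort is listed as positive for it. Genes of granulocyte maturation stood further apart between the groups than the replication genes. All 16 listed were detected in some library, the log2 fold change was positive for 15, and their summed CPM on library totals was 9597 and 5636 in Scr, against 15080 and 33410 in miR-99 KD. DESeq2 called 8 of the 16 higher. Their part in the results below was not tested.

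The replication genes were abundant and close to each other between groups. Scaled by library totals alone, they summed to 8826 and 8401 CPM in the Scr libraries against 8746 and 8777 CPM in miR-99 KD, with overlap between groups. Scaled by TMM, the sums were 8252 and 8667 CPM against 9025 and 8846, and both miR-99 KD libraries lay above both Scr libraries. Counts per gene and library ran from 296 to 44261. On the log2 scale the fold change was positive for 33 of the 52 and negative for 19, beside 49.0% positive among all genes tested. The median was 0.12 for the members and -0.01 for all genes. Fold changes ran from 0.781 to 1.94, and Ccne1 alone lay beyond 1.5-fold.

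No member was called by edgeR, DESeq2 or limma-voom, beside 0% of all genes by edgeR, 0.565% higher and 0.659% lower by DESeq2. The members' adjusted p in edgeR's quasi-likelihood test started at 0.621, and 1 of the 52, Ccne2, had an unadjusted p under 0.05. It was on the higher side, which held 2.66% of all genes, and 0 members were on the lower side, beside 5.23%. In 22 members both miR-99 KD libraries lay above both Scr libraries, which is 42.3%, beside 18.9% of all genes. In 5 members, Orc1, Pold1, Pold2, Lig1 and Timeless, both lay below, which is 9.62%, beside 25.3% of all genes. The other 25 overlapped. These counts moved with the scaling. With library totals alone 14 members lay above, beside 12.7% of all genes, and 8 below, beside 28.3%. With upper-quartile factors 10 lay above, beside 12.2%, and 8 below, beside 25.7%. In bulk RNA a larger share of cells in S phase and more of these RNAs per cell cannot be told apart.

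**Figure D2:**
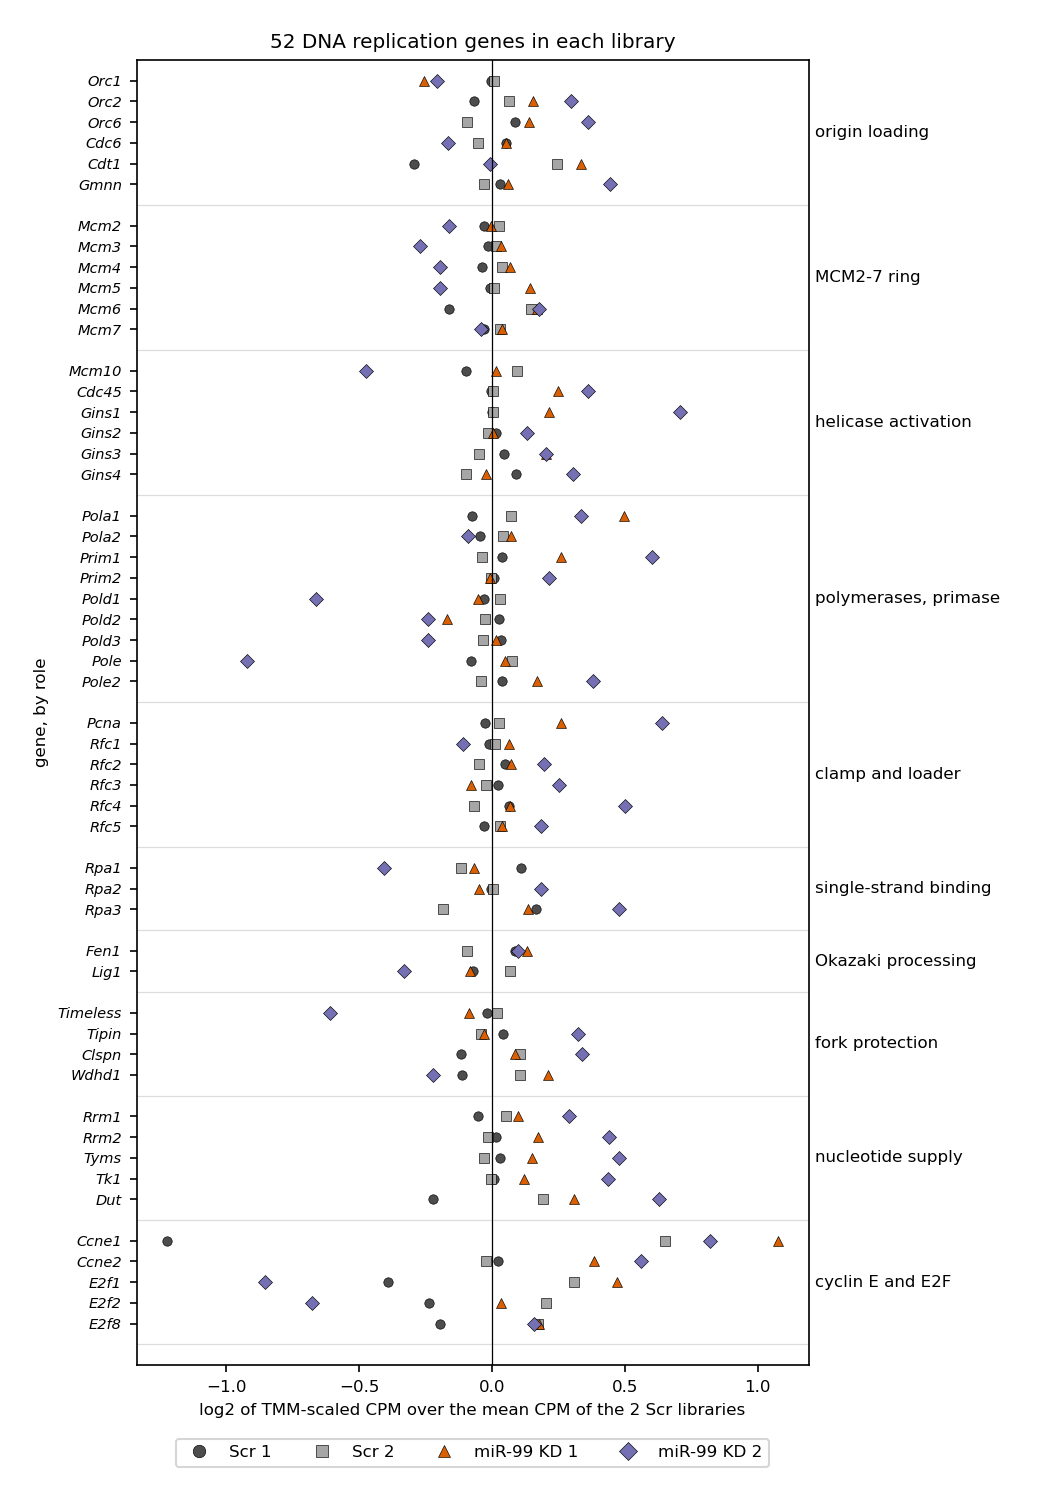
Each of the 52 members by role, with 1 point per library on the log2 scale of TMM-scaled CPM over the mean of the 2 Scr libraries. All 5 nucleotide-supply genes have both miR-99 KD points above both Scr points, the MCM genes overlap except Mcm6, and the Scr 1 point of Ccne1 lies far to the left.

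Levels could be compared between genes only per length. CPM was divided by the length in kilobases of the longest coding transcript in GENCODE M21, and the means below are over the 4 libraries. Mcm6 was highest at 227 CPM per kilobase, followed by Mcm3 at 151, Rrm1 at 151, Rrm2 at 147 and Mcm2 at 142. The spread over libraries was larger than those gaps below Mcm6, since Mcm3 ran from 131 to 161 and Rrm1 from 135 to 172. Mcm6 ran from 191 to 241 and did not overlap with either. E2f2 was lowest at 4.46, below Fen1 at 5.94, Clspn at 7.44 and E2f1 at 7.97. The MCM ring stood at 105 to 227 CPM per kilobase, well above its loaders, of which Orc1 had 9.60, Cdc6 20.4 and Cdt1 44.8. The subunits of one complex did not share one level. Among the GINS genes, Gins4 had 53.2, Gins3 13.2 and Gins2 9.27, and in the clamp loader Rfc5 had 67.4 and Rfc1 30.3. The levels of Gins2 and Fen1 are uncertain. They share 2758 and 1909 exon bases with genes on the other strand, and the strand setting of the counting is not given.

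**Figure D3:**
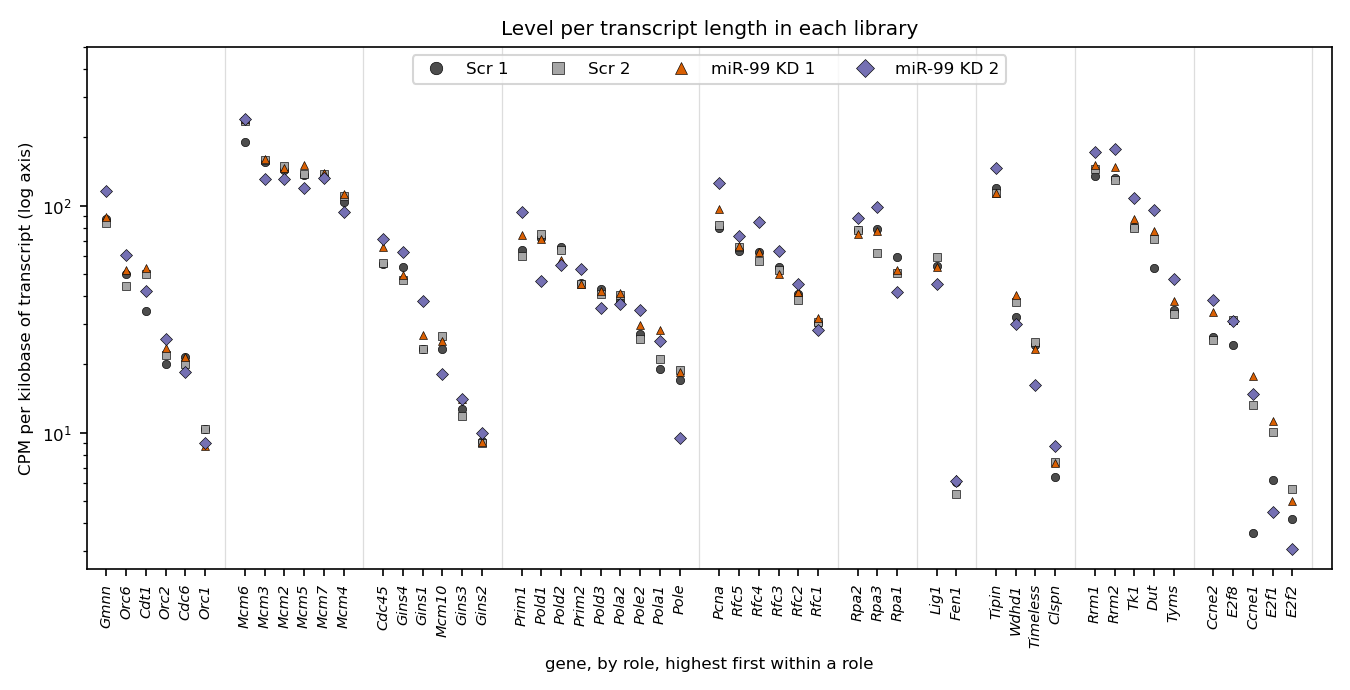
CPM per kilobase of the longest coding transcript for the 52 members by role, 1 point per library, on a log axis. The MCM genes, Rrm1, Rrm2 and Tipin lie at the top, and E2f2, Fen1, Clspn and E2f1 at the bottom.

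Among the genes that load the helicase, ORC subunits lay on different sides of Scr. Orc1, the large ATP-binding subunit, had 31.1 and 31.4 TMM-scaled CPM in Scr, against 26.2 and 27.1 in miR-99 KD. Orc2, a core subunit, had 71.7 and 78.6 against 83.7 and 92.2, and Orc6, the smallest subunit, had 73.5 and 64.9 against 76.2 and 88.9. Orc1 was thus lower in both miR-99 KD libraries while Orc2 and Orc6 were higher in both. Cdc6, the ATPase that joins ORC, had 99.4 and 92.4 CPM in Scr, against 99.4 and 85.5 in miR-99 KD. Cdt1, which carries the MCM ring to the origin, had 75.3 and 109 in Scr, against 116 and 91.65 in miR-99 KD. Both overlapped. Gmnn, which encodes geminin and had the highest level per kilobase of the loading genes, had 98.1 and 94.2 in Scr, against 100.2 and 131 in miR-99 KD. The miR-99 KD values lay above both Scr values, by little in the first library. Orc2, Orc6 and Gmnn made 3 of 6 genes that lay above, beside 18.9% of all genes, and that count was 1 of 6 with upper-quartile factors or totals alone, beside 12.2% and 12.7%. None of the 6 loading genes passed the test, and their log2 fold changes ran from -0.23 to 0.27 with a median of 0.20.

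The MCM ring itself differed little between the groups. Mcm6 had 829.6 TMM-scaled CPM in Scr 1, 1028 in Scr 2, and its miR-99 KD values were 1045 and 1049, so that the gap to Scr 2 was small and the low library was Scr 1. Mcm2 had 483.5 and 502.8 in Scr, against 492 and 440.3 in miR-99 KD, and the groups overlapped. Mcm3, Mcm4, Mcm5 and Mcm7 overlapped too, with all their values between 335.4 and 511.5. The log2 fold changes of 5 of the 6 were negative, from -0.11 for Mcm3 to near 0 for Mcm7, with Mcm5 and Mcm7 turning positive under DESeq2's size factors and Mcm2, Mcm3, Mcm5 and Mcm7 under length and GC offsets. That of Mcm6 was 0.17. For Mcm2, Mcm3, Mcm4 and Mcm5 the negative sign rests on miR-99 KD 2. Without that library the log2 fold changes were 0.029 for Mcm2, 0.065 for Mcm3, 0.10 for Mcm4 and 0.18 for Mcm5. Of the 6 genes, 5 lay above the mean of Scr in miR-99 KD 1 and 1 lay above it in miR-99 KD 2. None of the 6 passed the test.

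Of the genes that turn the loaded ring into a helicase, Cdc45, Gins1 and Gins3 were higher in both miR-99 KD libraries than in both Scr libraries. They made 3 of 6 genes, beside 18.9% of all genes. Upper-quartile factors gave 2 above and 1 below, beside 12.2% and 25.7% of all genes. Totals alone gave 3 above and 1 below, beside 12.7% and 28.3%. Cdc45, the cofactor that binds the ring, had 118.7 and 119.3 TMM-scaled CPM in Scr, against 141 and 153 in miR-99 KD. Its log2 fold change was 0.30 ± 0.15 (SE), with an adjusted p of 0.673 by edgeR. Gins1 had 25.3 in both Scr libraries and 29.4 and 41.3 in miR-99 KD, with a log2 fold change of 0.48 ± 0.24 (SE) and an adjusted p of 0.681 by edgeR. Both genes had very close Scr values, and for Gins1 most of the difference came from miR-99 KD 2. Gins3 had 31.9 and 29.8 in Scr, against 35.5 in each miR-99 KD library. Gins2, Gins4 and Mcm10, which helps to fire the helicase, overlapped, with log2 fold changes of 0.07, 0.15 and -0.21. None of the 6 passed the test.

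Of the 9 polymerase and primase genes, 3 lay above in both miR-99 KD libraries, 2 lay below and 4 overlapped. Among all genes 18.9% lay above and 25.3% below. The counts were 2 above and 3 below with upper-quartile factors, beside 12.2% and 25.7% of all genes. They were the same with totals alone, beside 12.7% and 28.3%. Pola1, the catalytic subunit of polymerase alpha, had 102 and 112.5 TMM-scaled CPM in Scr, against 151 and 135 in miR-99 KD, with means of 107 ± 7.74 and 143 ± 11.5 (SD, 2 libraries each). Its log2 fold change was 0.42 ± 0.16 (SE) and its adjusted p 0.639 by edgeR. Prim1, the catalytic subunit of primase, had 101 and 95.4 in Scr, against 117 and 149 in miR-99 KD, with a log2 fold change of 0.44 ± 0.19 (SE) and an adjusted p of 0.659 by edgeR. Both catalytic subunits were thus higher in each miR-99 KD library than in each Scr library, and Prim1 had the highest level per kilobase of the 9 genes. Their partner subunits overlapped, Pola2 with a log2 fold change of -0.01 and Prim2 with 0.11. Pold1, the catalytic subunit of polymerase delta, had 249 and 260.1 in Scr, against 246 and 161 in miR-99 KD. Pold2, another subunit of that enzyme, had 109 and 105 in Scr, against 95.1 and 90.4 in miR-99 KD. Pold1 was just under the Scr values in miR-99 KD 1 and far under them in miR-99 KD 2, while Pold2 was lower by a like amount in both. Pold3, a further subunit, overlapped with a log2 fold change of -0.11. Pole2, a subunit of polymerase epsilon, had 46.6 and 44.1 in Scr, against 50.9 and 59.0 in miR-99 KD. Pole, the catalytic subunit, had 122 and 136 in Scr, against 133 and 68.0 in miR-99 KD, the longest transcript of the list at 7163 bases and low in 1 library. None of the 9 passed the test.

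Of the clamp and its loader, 4 of 6 genes were higher in both miR-99 KD libraries, beside 18.9% of all genes. Pcna had 120.4 and 125 TMM-scaled CPM in Scr, against 147 and 191 in miR-99 KD, with means of 123 ± 3.18 and 169 ± 31.1 (SD, 2 libraries each). Its log2 fold change was 0.46 ± 0.19 (SE), with an adjusted p of 0.655 by edgeR. The counts of Pcna are uncertain, since Pcna-ps2 is by its name a pseudogene copy, though the sequences were not compared. Pcna-ps2 had 1968 and 1863 counts in Scr, against 2384 and 3196 in miR-99 KD, beside 4951, 5067, 6079 and 8059 of Pcna. Of the loader genes, Rfc2 had 205 and 191 CPM in Scr, against 208 and 226.5 in miR-99 KD. Rfc4 had 80.03 and 72.9 in Scr, against 80.14 and 108 in miR-99 KD. Rfc5 had 177 and 185 in Scr, against 186 and 206 in miR-99 KD. In all 3 the gap between the highest Scr library and miR-99 KD 1 was small. Rfc1, the large subunit, and Rfc3 overlapped, with log2 fold changes of -0.02 and 0.10. None of the 6 passed the test. With upper-quartile factors or totals alone 1 of the 6 genes lay above in both miR-99 KD libraries, near the 12.2% and 12.7% of all genes.

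The genes that bind single strands, join Okazaki fragments and guard the fork showed no common direction. Rpa2, a subunit of replication protein A and its highest gene per kilobase, had 141 TMM-scaled CPM in both Scr libraries and 136.5 and 160.5 in miR-99 KD. Rpa1 and Rpa3 overlapped as well, with log2 fold changes of -0.23 and 0.32. Lig1, the ligase that seals Okazaki fragments, had 172 and 189 in Scr, against 170.5 and 144 in miR-99 KD. Fen1, the flap nuclease, had 14.4 and 12.7 in Scr, against 14.8 and 14.5 in miR-99 KD. Lig1 was lower and Fen1 higher, each by less than the Scr libraries differed in the nearer miR-99 KD library. Fen1's value is uncertain, since 1909 of its exon bases lie across from an antisense gene and the sources used here do not give the strand setting of the counting. Of the fork-protection genes, Timeless had 109 and 112 in Scr, against 104 and 72.1 in miR-99 KD. Its partner Tipin had 221 and 209 in Scr, against 210.2 and 269 in miR-99 KD. Timeless lay below in both libraries and Tipin overlapped, as did Clspn, the claspin gene, and Wdhd1, which links the helicase to polymerase alpha, with log2 fold changes of 0.22 and 0.01. None of the 9 genes in these roles passed the test.

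Nucleotide supply was the one role in which every gene, 5 of 5, was higher in both miR-99 KD libraries, beside 18.9% of all genes. Rrm2, the regulated subunit of ribonucleotide reductase, had 290.2 and 285 TMM-scaled CPM in Scr, against 324 and 390.1 in miR-99 KD, with a log2 fold change of 0.31 ± 0.16 (SE) and an adjusted p of 0.688 by edgeR. Rrm1, the large subunit, had 541 and 582 in Scr, against 601 and 686 in miR-99 KD. Tyms, thymidylate synthase, had 110.1 and 105.5 in Scr, against 120 and 150.1 in miR-99 KD, with a log2 fold change of 0.32 ± 0.18 (SE) and an adjusted p of 0.699. In these 3 genes miR-99 KD 2 was the highest library and miR-99 KD 1 stood closer to Scr. Tk1, thymidine kinase, had 116 and 115 in Scr, against 125 and 156 in miR-99 KD, with a log2 fold change of 0.29 ± 0.18 (SE) and an adjusted p of 0.712. Dut, the dUTPase that keeps uracil out of DNA, had 104 and 139 in Scr, against 150.1 and 187 in miR-99 KD, with a log2 fold change of 0.48 ± 0.23 (SE) and an adjusted p of 0.667. In both genes miR-99 KD 2 was again the highest library, and Scr 1 was low for Dut. The median of the 5 was 0.31 on the log2 scale, and none passed edgeR's test. The count of 5 of 5 held under DESeq2's size factors and under length and GC offsets, and was 3 of 5 with totals alone, beside 12.7% of all genes, and 1 of 5 with upper-quartile factors, beside 12.2%. The sign of each of the 5 log2 fold changes was positive under all 12 alternatives.

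Both cyclin E genes, 2 of the 5 in this role, were higher in each miR-99 KD library than in each Scr library, beside 18.9% of all genes. The 3 E2F genes overlapped. The count above was 2 of 5 with upper-quartile factors and 3 of 5 with totals alone, beside 12.2% and 12.7% of all genes. Ccne2 had 79.35 and 76.9 TMM-scaled CPM in Scr, against 102 and 115 in miR-99 KD, with means of 78.1 ± 1.73 and 109 ± 9.37 (SD, 2 libraries each). Its log2 fold change of 0.48 ± 0.16 (SE) had the smallest unadjusted p of the 52 by edgeR, 0.0373, and an adjusted p of 0.621. Ccne1 had 7.20 in Scr 1, 26.4 in Scr 2, and its miR-99 KD values were 35.5 and 29.7. The low Scr 1 library set the size of that difference, since the log2 fold change was 0.95 in all libraries, 0.37 without Scr 1 and 2.23 without Scr 2. E2f1, the activating factor, had 17.0 and 27.6 in Scr, against 30.9 and 12.35 in miR-99 KD, so that miR-99 KD 1 was the highest library and miR-99 KD 2 the lowest. E2f8, a repressing family member, overlapped with a log2 fold change of 0.17, and that of E2f2 was -0.28. None of the 5 genes passed the test, and Ccne2, which shares 609 exon bases with Ints8 on the other strand, is uncertain in count.

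The direction of a member went with the length of its transcript. Of the 26 shorter members, from 670 to 2962 bases, the log2 fold change was positive for 22 and its median was 0.23. Of the 26 longer ones, from 3006 to 7163 bases, it was positive for 11 and the median was -0.04. Among all genes tested, split at the same length, 56.3% of the shorter and 40.4% of the longer were positive. Against the mean of Scr, the split was seen in 1 of the miR-99 KD libraries. In miR-99 KD 1, 20 of 26 members lay above the mean of Scr in each length class, beside 50.4% and 53.5% of all genes. In miR-99 KD 2, 22 of 26 shorter members and 10 of 26 longer members did, beside 59.2% and 35.4% of all genes. Across genes, which are not independent, the Spearman correlation of the difference miR-99 KD 2 minus miR-99 KD 1 with transcript length was -0.67 over the 52 members and -0.34 over 15519 tested genes, all from the same libraries. For GC content it was -0.51 and -0.16. The Scr libraries differed by length too. For Scr 2 minus Scr 1 the correlation with length was 0.41 over the members and 0.21 over the tested genes. With GC content it was 0.30 and 0.046. With each library's trend on length and GC content removed, an alternative chosen after seeing the data, 41 of 52 members were positive, 28 lay above and 2 below, beside 21.9% and 20.5% of all genes. Mcm2, Mcm3, Mcm5 and Mcm7 then had log2 fold changes of 0.12, 0.02, 0.12 and 0.16, the reverse of their sign before, and none of the 52 was called.

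**Figure D4:**
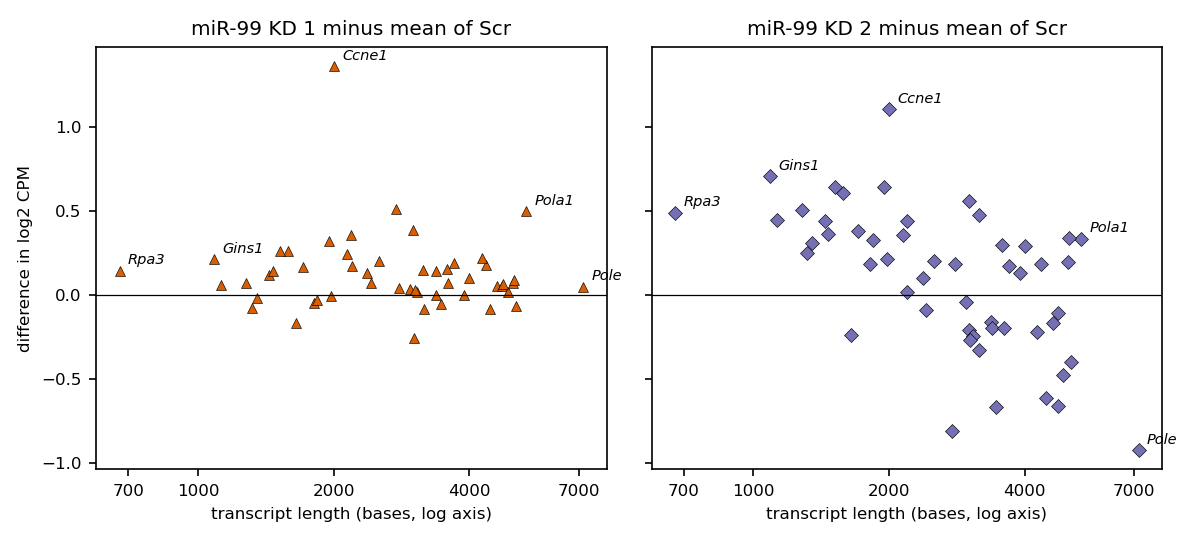
Difference of each member in log2 TMM-scaled CPM from the mean of Scr (y axis) against the length of its longest coding transcript in bases (x axis, log scale), for miR-99 KD 1 and miR-99 KD 2. In miR-99 KD 2 the points run downward with length, and in miR-99 KD 1 20 of 26 members lie above 0 in each length class.

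Other genes of the same pathways were counted from fixed lists. Of 31 further replication genes the log2 fold change was positive for 19, and the median was 0.12. The 3 with the smallest unadjusted p were Asf1b, a histone chaperone, at 0.47, Recql4, a helicase, at -0.71, and Dbf4, the activator of the kinase that fires origins, at 0.67. Of 14 further nucleotide genes 10 were positive, with a median of 0.09, and Dck (deoxycytidine kinase) had 0.43 and Shmt1 (a folate enzyme) -0.32. Of 16 further regulators of S-phase entry 10 were positive, with a median of 0.22. Rb1, which encodes the protein that restrains E2F factors, had 7.78 and 12.1 TMM-scaled CPM in Scr, against 17.6 and 21.8 in miR-99 KD, with an adjusted p of 0.6002 by edgeR. The CDK inhibitor Cdkn1a was at -0.32 and the E2F partner Tfdp1 at 0.63. Of 9 checkpoint genes 5 were positive, with a median of 0.01, and Chek1 (a checkpoint kinase) had 0.35, Rad1 (a checkpoint clamp subunit) -0.26 and Atrip (the partner of ATR) -0.30. In the mitotic list the value was positive for 13 of 16 genes, the median was 0.23, and Kif11, a spindle motor, was at 0.49. No gene of these 5 lists passed edgeR's test. The granulocyte list had a median of 1.86 and was highest in miR-99 KD 2, as were 27 of the 52 replication genes, while 19 of the 52 were lowest in that library.

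**Figure D5:**
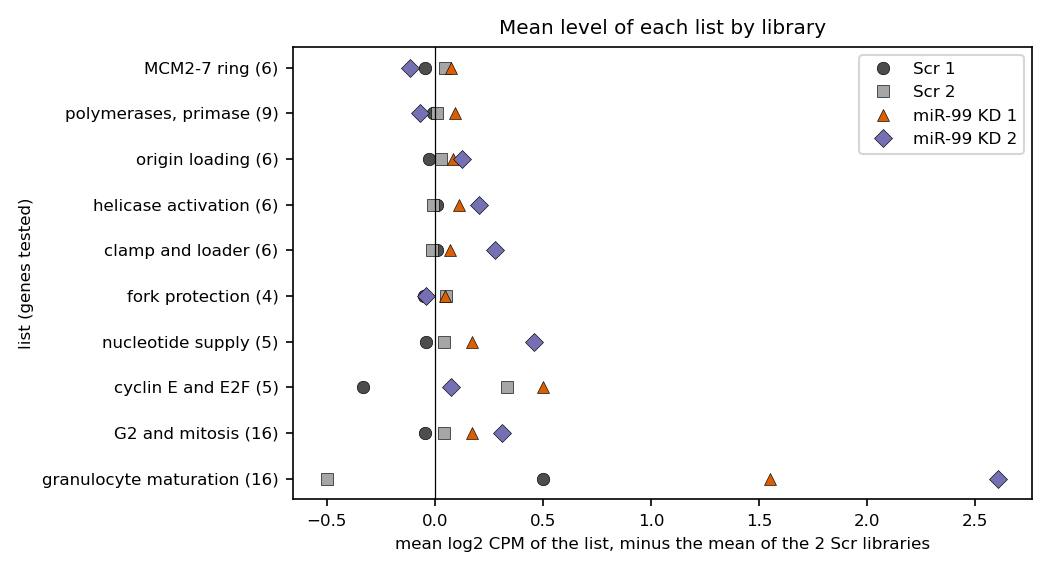
Mean log2 CPM of each gene list minus the mean of the 2 Scr libraries, 1 point per library. The nucleotide-supply list is highest in miR-99 KD 2, the MCM list is lowest there, and the granulocyte list spans a far wider range than any replication role.

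Exon bases were shared with neighbours for several members. Of the categories that name no gene and were left out, the one called ambiguous held 0.984% to 1.21% of entries per library. By the GENCODE M21 annotation, 19 of the 52 share exon bases with another gene and 13 of them with a protein-coding one. The longest overlaps were Gins2 with Gse1 (2758 bases), Fen1 with Gm10143 (1909), Orc2 with Nif3l1 (1150) and Rfc2 with Lat2 (952), each on opposite strands. Mcm7 also hosts Mir25 and Mir93, which were listed at 0 counts in all 4 libraries. For these 19 genes the direction and the level given above are of the deposited count, whichever strand it came from.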

How the data were processed

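RNA sequencing of 4 libraries of sorted L-GMP cells was used. The deposited files hold raw read counts per Ensembl gene, as their whole numbers and differing totals show. STAR, Picard, HTSeq and DESeq2 were named, without versions or roles, per the submitters' processing notes, with mm9 as the genome build. The sources used here do not give the annotation release or the strand setting. Each file has 45232 genes and 5 categories that name no gene, which held 43.7% to 49.7% of entries and were left out. Because reads that align to several places stay out of such counts, genes with near-identical copies are uncertain.

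Counts were filtered with filterByExpr (minimum count 10), scaled by TMM and tested with edgeR 4.0.16's quasi-likelihood test in R 4.3.3, with Benjamini-Hochberg adjustment over all 15591 genes at 0.05. The common biological coefficient of variation was 0.320 on 2 residual degrees of freedom. Alternatives used DESeq2 1.42.0 and limma 3.58.1, other scalings and filters, each library left out, a replicate block, and length and GC offsets added after seeing the data. Replicates are samples of separate mice by the series design, and p-values cover the spread between these libraries only.

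TMM-scaled CPM divides a count by the TMM-adjusted library size, and CPM per kilobase divides that by transcript length. Coordinates and sequences are of GRCm38 (GENCODE M21 and RefSeq) and were looked up by name. None were converted from mm9. The 52 members and all lists were chosen with earlier results of these data known. Every member is accounted for by role. Values per library are given for members whose groups do not overlap, the highest member per kilobase of each role, and 11 members listed by name. Full test values are given for the 10 members with the smallest unadjusted p, and the 3 genes with the smallest p are named in each further list of replication, S-phase entry and checkpoint genes. In the nucleotide list 1 of the 3 is not reported here. Pole, E2f2, Kif11 and other genes outside this rule were named after their values were seen.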

Additional observations from a re-analysis of the deposited data

How the results depend on the processing

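No member was called under any of the 12 alternatives, and none of the sign changes below concerns a called gene. Of the 52 members, 35 kept their sign under all 12. Over all genes, edgeR called 10 higher and 13 lower with upper-quartile factors and 5 and 4 with no filter on low counts, and DESeq2 called 96 and 112. Without 1 library the counts ran from 0 to 158 higher and from 0 to 136 lower, the most being without Scr 1. The members' median log2 fold change of 0.12 was 0.18 with DESeq2 and 0.18 with no filter, and ran from 0.10 to 0.25 without 1 library. The number of members with both miR-99 KD libraries above both Scr libraries was 22, beside 18.9% of all genes. It was 10 with upper-quartile factors and 14 with totals alone, beside 12.2% and 12.7%. Without 1 library it ran from 25 to 32, beside 30.6% to 35.5% of all genes. The number below was 5, beside 25.3% of all genes. It was 8 with either scaling, beside 25.7% and 28.3%, and 2 with length and GC offsets, beside 20.5%. Without 1 library it ran from 8 to 20, beside 35.9% to 41.1% of all genes. The most, 20 or 38.5%, was without miR-99 KD 1, beside 41.1% of all genes. The cause was not tested. Dropping a library makes separation easier by construction.

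Signs of log2 fold changes near 0 reversed. With length and GC offsets the values were 0.094 for Cdc6, 0.12 for Mcm2, 0.023 for Mcm3, 0.12 for Mcm5, 0.16 for Mcm7, 0.14 for Pola2, 0.091 for Rfc1 and 0.088 for E2f1. With DESeq2 they were 0.036 for Mcm5, 0.054 for Mcm7, 0.046 for Pola2, 0.033 for Rfc1 and 0.0017 for E2f1. With DESeq2's size factors in edgeR they were 0.019 for Mcm5, 0.038 for Mcm7, 0.031 for Pola2 and 0.017 for Rfc1. With no filter they were 0.0035 for Cdc6, 0.039 for Mcm5, 0.056 for Mcm7, 0.049 for Pola2, 0.036 for Rfc1 and 0.0042 for E2f1. Wdhd1 was at -0.00073 with limma-voom, -0.015 with upper-quartile factors and -0.019 with at least 50 counts in 2 libraries. Without 1 library the values ran from -0.11 to 0.084 for Cdc6, -0.0049 to 0.51 for Cdt1, -0.10 to 0.029 for Mcm2, -0.21 to 0.065 for Mcm3, -0.14 to 0.10 for Mcm4, -0.14 to 0.18 for Mcm5, 0.020 to 0.078 for Mcm7, -0.42 to 0.050 for Mcm10, -0.032 to 0.11 for Pola2, -0.18 to 0.047 for Pold3, -0.86 to 0.080 for Pole, -0.050 to 0.095 for Rfc1, -0.046 to 0.31 for Rfc3, -0.016 to 0.25 for Rpa2, -0.16 to 0.25 for Wdhd1, -0.80 to 0.50 for E2f1 and -0.62 to 0.067 for E2f2.

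The libraries share replicate numbers, but no label ties same-numbered mice. Deviations from the group means correlated at -0.43 for same-numbered libraries and at 0.43 for crossed numbers. With 2 libraries per group these values mirror each other by construction. With the replicate number as a block, edgeR called 0 genes and 0 members, the members' median was 0.125, and Wdhd1 was at -0.00042. Depth was not low for any member, each of which had at least 296 counts in every library.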
